A study of Mus musculus with 2 samples.

Results

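The sugar and monocarboxylate transporters described here are the genes of 4 carrier families, taken by symbol with earlier results of these data known. The families are the facilitative sugar carriers (Slc2a), the sodium-coupled carriers (Slc5a), the monocarboxylate carriers (Slc16a) and the sugar phosphate carriers (Slc37a). The rule took every listed gene whose symbol is 1 of these 4 family names followed by a number, which gave 41 of 25810 genes: 12 Slc2a, 11 Slc5a, 14 Slc16a and 4 Slc37a genes. They were measured in 2 RNA-Seq libraries of mammary epithelial cells (MECs) from inguinal glands of lactation day 3, 1 from wild type (WT) mice and 1 from mice that lack Igfbp7 in the whole body (Igfbp7-/-) through a germline deletion of its exon 1. Cells carrying lineage markers of leukocytes, endothelium and erythroid cells had been removed with magnetic beads before RNA extraction in both genotypes. The labels give the background as C57BL/6, whereas the methods describe the knockout mice as generated on CD1. The labels also name CD35 where the methods name CD31 as the endothelial marker, and neither gives the age of the mice or how many mice contributed to a library. With 1 library per genotype there was no measure of the variation between animals, so no difference below was tested between genotypes and every interval covers the sampling of reads only.

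Lactating alveolar cells draw large amounts of glucose from the blood, because lactose, the main sugar of milk, is made from glucose and UDP-galactose in the Golgi. GLUT proteins, encoded by Slc2a genes, let glucose pass down its gradient, and GLUT1 is the principal one on the basolateral side of these cells. SGLT proteins of the Slc5a family instead use the sodium gradient, and other members of that family carry inositol, iodide, vitamins, choline or short monocarboxylates. MCT proteins of the Slc16a family move lactate and pyruvate together with protons, and need a chaperone, basigin or embigin, to reach the plasma membrane. Several Slc37a proteins, though not all, exchange glucose 6-phosphate for phosphate across the membrane of the endoplasmic reticulum.

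Igfbp7 itself had 5224 reads in the WT library, or 152.2 RPM, but 37 reads in the Igfbp7-/- library, or 1.06 RPM, so the targeted gene followed the labels. RPM, the deposited unit, is a read count divided by the depth of its library, so that a single read stood for 0.0291 RPM in WT against 0.0286 RPM in Igfbp7-/-. The libraries held 34327854 and 35016847 mapped reads, of which 82.3% and 72.3% fell on listed genes with a symbol. The 41 carriers together took 19495 reads in WT and 21821 reads in Igfbp7-/-, that is 567.9 and 623.2 RPM. Low counts were mostly even (75.8% and 74.1% of genes with 1 to 20 reads), so intervals were computed on read pairs. Ratios of Igfbp7-/- to WT were formed after adding 0.1 RPM to both values, for genes that reached 1 RPM in either library, and genes that differed by 1.5 times or more were counted as higher or lower.

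Reads were found on 39 of the 41 carriers, and 30 reached 1 RPM in at least 1 library. Of these 30, 7 were higher in Igfbp7-/- and 7 were lower, 23.3% in each direction. The background over all 14026 genes past the same minimum was 21.4% higher and 23.0% lower, 44.5% in all, so the carriers moved past 1.5 times about as often as other genes. Their median log2 ratio was -0.24 (quartiles -0.56 and 0.51) and that of all genes was 0.03 (-0.52 and 0.51). The shares hide large differences between single members. Slc5a8 stood far above the others with a log2 ratio of 3.51, and without it the summed level of the carriers was 561.6 RPM in WT against 550.3 RPM in Igfbp7-/-. At the other end were Slc2a10, Slc2a4, Slc16a13, Slc16a6 and Slc16a3, with log2 ratios between -1.56 and -1.28.

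**Figure D1:**
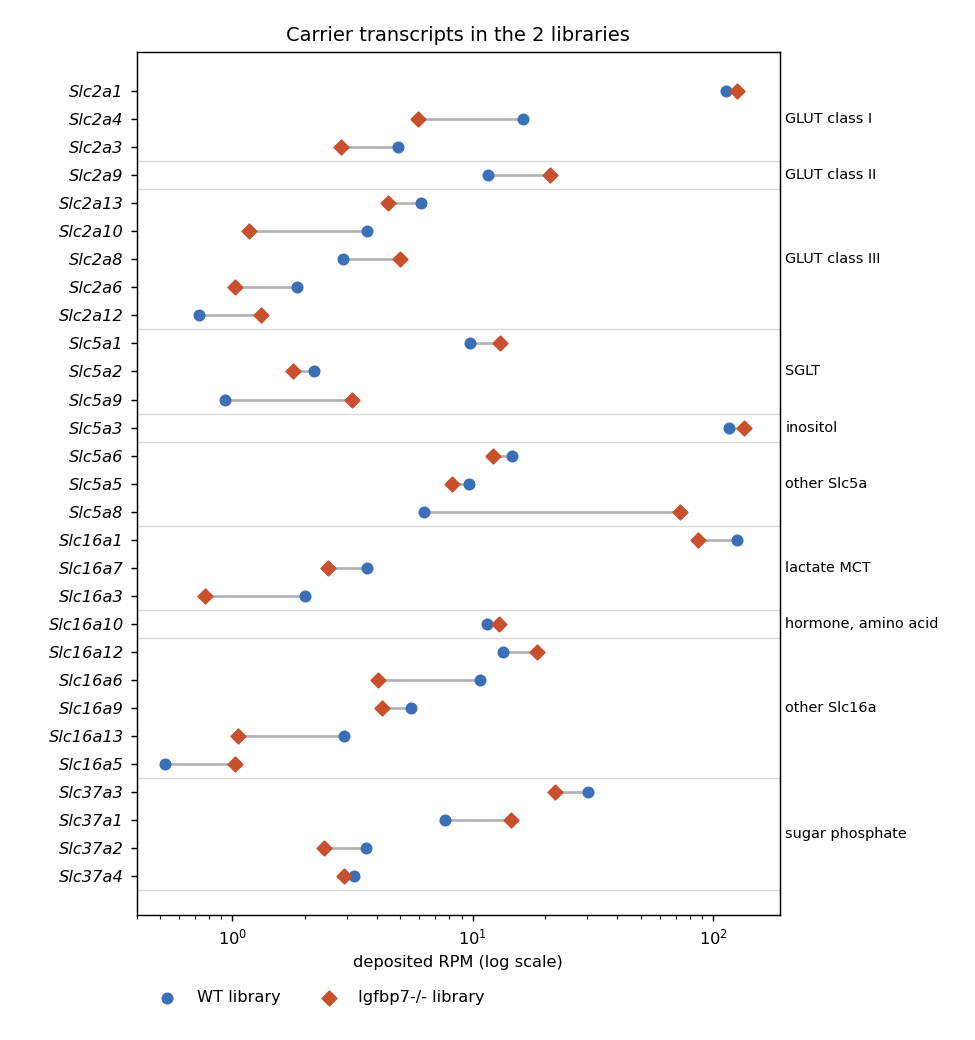
Deposited RPM (log scale) of 29 carriers with at least 1 RPM in a library, with circles for the WT and diamonds for the Igfbp7-/- library, ordered by role and joined by a line for each gene. Slc2a1, Slc5a3 and Slc16a1 lie to the right in both libraries, and the longest line is that of Slc5a8, from 6.29 to 72.9 RPM.

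Slc5a8 encodes SMCT1, a sodium-coupled carrier of lactate, pyruvate and short-chain fatty acids. Its upstream sequence is shown because this is the member that differed most, beside that of Slc16a1, which encodes the proton-coupled lactate carrier MCT1. Both are the 250 bases before the transcription start on the plus strand, from RefSeq (build GRCm38.p6), at chr10:88885742-88885991 for Slc5a8 and chr3:104638414-104638663 for Slc16a1. In the first, capitals mark CG dinucleotides, of which there are 17, while the Slc16a1 window has 37 and the median over 32851 promoter windows was 6. In the second they mark CACGTG, the E-box, a hexamer bound by MYC and related factors.
Slc5a8 upstream: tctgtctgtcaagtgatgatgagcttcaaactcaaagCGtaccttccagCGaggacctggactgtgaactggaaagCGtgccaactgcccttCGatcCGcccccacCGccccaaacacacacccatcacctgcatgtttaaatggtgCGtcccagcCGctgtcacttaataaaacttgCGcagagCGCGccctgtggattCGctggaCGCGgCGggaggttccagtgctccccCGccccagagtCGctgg
Slc16a1 upstream: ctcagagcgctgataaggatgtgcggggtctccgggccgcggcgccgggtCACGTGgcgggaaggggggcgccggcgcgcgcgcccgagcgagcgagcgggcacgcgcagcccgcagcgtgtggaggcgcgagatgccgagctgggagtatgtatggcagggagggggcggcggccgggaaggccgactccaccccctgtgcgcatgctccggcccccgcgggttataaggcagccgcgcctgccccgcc
Of the 41 carriers, 31 had a promoter entry, with 36 windows in all. CACGTG, which reads the same on both strands, was found in 4 of the 36 windows (Slc16a1, Slc16a12, Slc37a3 and Slc5a1) and in 6.02% of all windows. The letters TTCNNNGAA, the general form of a STAT site, were searched on both strands and were in none of the 36 windows, against 7.02% of all windows. TATAAA, also searched on both strands, was in 3 of the 36 windows (Slc16a4, Slc37a4 and Slc5a7), against 12.4% of all windows. These are matches of letters only, and they say nothing of binding in these cells.

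Among the sodium-coupled carriers, Slc5a8 (chromosome 10, 88348737 to 88392250, plus strand, NCBIM37) had counts of 216 (6.29 RPM) in WT against 2551 (72.9 RPM) in Igfbp7-/-. The Igfbp7-/- library was thus 11.4 times higher, a log2 ratio of 3.51 (95% Clopper-Pearson interval on read pairs 3.25 to 3.83). Among all 14026 genes past the minimum, 31 had a higher ratio, and 15 of the 8201 genes that reached 10 RPM in a library did. On the per-length scale (RPKM, RPM divided by the gene length in kilobases), Slc5a8 went from 1.18 to 13.6 RPKM. By that scale it ranked 20th of the 41 carriers in WT and 3rd in Igfbp7-/-.

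Slc5a3 encodes SMIT1, which takes up myo-inositol with sodium. It was the most abundant member of its family in both libraries by RPM, with counts of 4017 (117.0 RPM, 10.7 RPKM) in WT against 4695 (134.1 RPM, 12.3 RPKM) in Igfbp7-/- (log2 ratio 0.20, interval 0.11 to 0.28). The interval excluded a ratio of 1 while the difference stayed within 1.5 times. Its gene overlaps Mrps6 on chromosome 16 and shares 696 of its 10913 exon bases with it on the same strand. Mrps6, a mitochondrial ribosomal protein gene, had 26.9 and 27.2 RPM, below Slc5a3 in both libraries. Per length it was above Slc5a3, at 33.8 and 34.2 RPKM. How many of the Slc5a3 reads came from the shared bases was not tested. Of the Slc5a reads, Slc5a3 took 72.6% in WT (95% Wilson interval on read pairs 70.9 to 74.2%) and 54.6% in Igfbp7-/- (53.1 to 56.0%), while Slc5a8 took 3.90% (3.24 to 4.69%) and 29.6% (28.3 to 31.0%).

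The other Slc5a members with at least 1 RPM showed smaller differences in RPM. Slc5a9, which encodes SGLT4, was the other member of the family past 1.5 times, with counts of 32 (0.93 RPM) in WT against 110 (3.14 RPM) in Igfbp7-/- (log2 ratio 1.65, interval 0.93 to 2.66). Slc5a1 encodes SGLT1, the high-affinity sodium-glucose carrier, and had counts of 334 and 454 (9.73 and 13.0 RPM, 2.47 and 3.30 RPKM; 0.41, 0.12 to 0.71). Slc5a2, the kidney-type SGLT2, had 2.18 and 1.799 RPM, with an interval from -1.01 to 0.44 that included a ratio of 1. Slc5a2 shares 597 of its 2897 exon bases with BC017158 on the opposite strand. BC017158 had 4.43 and 5.23 RPM, above Slc5a2 in both libraries.

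Slc5a5 encodes NIS, the iodide carrier that brings iodide into milk. It had counts of 331 (9.64 RPM) in WT against 288 (8.22 RPM) in Igfbp7-/-, a log2 ratio of -0.23 whose interval (-0.56 to 0.10) included a ratio of 1. Slc5a6 encodes SMVT, which takes up biotin and pantothenate, and had counts of 500 and 426 (14.6 and 12.2 RPM, 4.22 and 3.52 RPKM; -0.26, -0.53 to 0.01). A difference in these carriers of iodide and vitamins was thus not detectable at this depth. Slc5a6 shares 396 exon bases with 0610007C21Rik on the opposite strand, and that gene had 10.9 and 9.31 RPM. Slc5a7, Slc5a10, Slc5a11 and Slc5a12 stayed below 1 RPM in both libraries, the highest of them at 0.44 RPM (Slc5a10 in WT). Summed over the family, Slc5a transcripts were at 161.2 RPM in WT and 245.8 RPM in Igfbp7-/-.

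**Figure D2:**
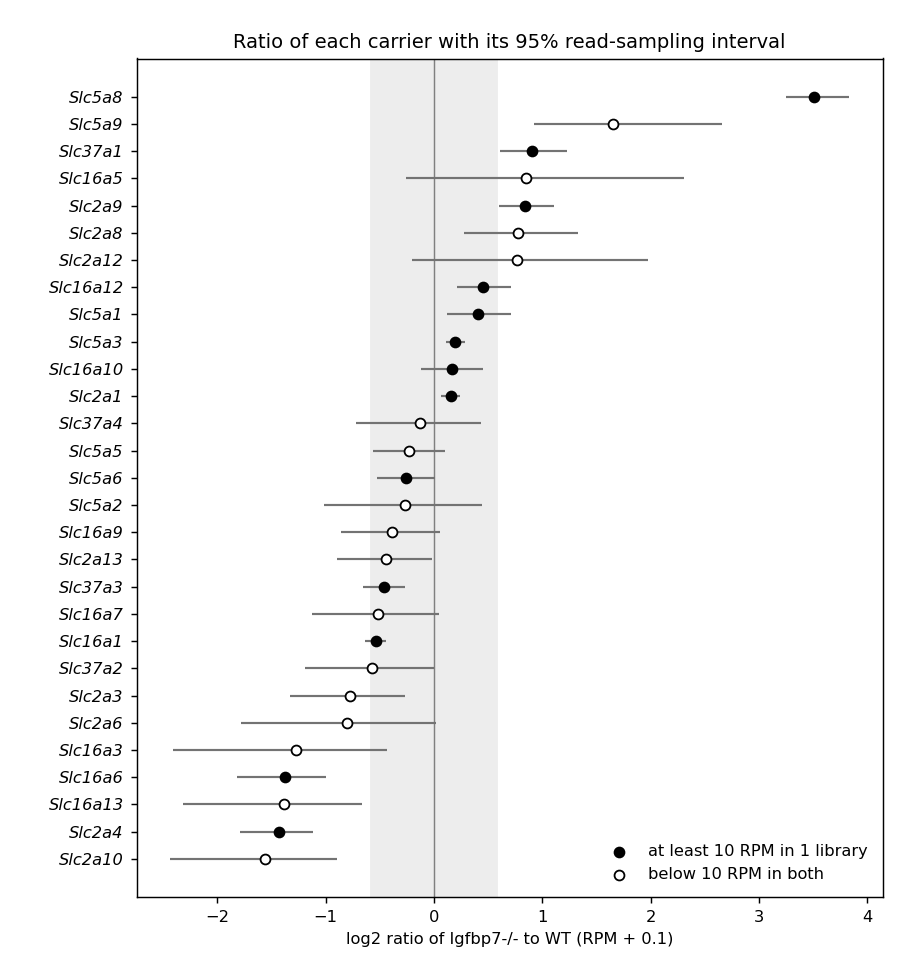
Log2 ratio of Igfbp7-/- to WT (after adding 0.1 RPM) for 29 carriers with at least 1 RPM, with 95% Clopper-Pearson intervals on read pairs. The grey band marks ratios within 1.5 times, and filled points have at least 10 RPM in a library: Slc5a8 lies alone at 3.51, and Slc2a10 is lowest at -1.56.

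The glucose carriers of the Slc2a family were led by Slc2a1, which encodes GLUT1 (chromosome 4, 118781316 to 118809935, plus strand, NCBIM37). It had counts of 3893 (113.4 RPM, 44.1 RPKM) in WT against 4419 (126.2 RPM, 49.0 RPKM) in Igfbp7-/-. The log2 ratio was 0.15 (interval 0.07 to 0.24), within 1.5 times. By RPKM it was the highest of all 41 carriers in both libraries. GLUT1 transcripts made up 70.3% of the Slc2a reads in WT (68.5 to 71.9%) and 74.7% in Igfbp7-/- (73.1 to 76.3%).

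Slc2a4, which encodes the insulin-responsive GLUT4 of muscle and fat, was lower. It had counts of 557 (16.2 RPM) in WT against 208 (5.94 RPM) in Igfbp7-/-, 2.70 times lower, with a log2 ratio of -1.43 (interval -1.79 to -1.12). Its share of the Slc2a reads went from 10.1% (8.99 to 11.2%) to 3.52% (2.91 to 4.24%). Fat cell markers went both ways, most of them lower: 3 of 5 adipocyte markers past the minimum were lower and 1 was higher (Lep), beside 23.0% and 21.4% of all genes, and the summed level of the list was 623.0 RPM in WT and 233.5 RPM in Igfbp7-/-. Adipoq, the adipocyte hormone adiponectin, had 5.59 and 0.9995 RPM. Fabp4, a fatty acid binding protein, made up most of the sum, with 543.5 and 173.4 RPM. Plin1, the coat protein of fat droplets, was below the minimum with 9 and 2 reads, and its interval (-7.79 to 1.04) included a ratio of 1. The part of fat cells in the Slc2a4 difference was not tested. In such bulk libraries fewer cells of a type and less RNA per cell cannot be told apart.

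Slc2a3, the high-affinity GLUT3, also counted as lower, with counts of 168 (4.89 RPM) in WT against 99 (2.83 RPM) in Igfbp7-/- (log2 ratio -0.77, interval -1.33 to -0.27). Slc2a2, which encodes the liver-type GLUT2, was at 0 reads in both libraries, which allows a level of at most 0.175 RPM (WT) or 0.171 RPM (Igfbp7-/-), the value of 3 read pairs. Of the 3 class I GLUT genes with reads, Slc2a1 was thus within 1.5 times, while Slc2a3 and Slc2a4 were lower. Over all genes 23.0% were lower.

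Slc2a9 encodes GLUT9, which mainly carries urate. It had counts of 398 (11.6 RPM) in WT against 732 (20.9 RPM) in Igfbp7-/-, 1.796 times higher (log2 ratio 0.84, interval 0.60 to 1.11). By RPKM it stood at 3.22 in WT, below the 5.75 of Slc2a4, and at 5.80 in Igfbp7-/-, above the 2.10 of Slc2a4. The other class II genes were nearly silent: Slc2a5, the fructose carrier GLUT5, had 2 reads in each library, and Slc2a7 had 0.

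The class III GLUT genes, many of whose products sit on internal membranes, were low and went both ways. Slc2a10, which encodes GLUT10, had counts of 125 (3.64 RPM) in WT against 41 (1.17 RPM) in Igfbp7-/- (log2 ratio -1.56, interval -2.43 to -0.90). Slc2a6 had 1.86 and 1.03 RPM (-0.80), with an interval of -1.78 to 0.02 that included a ratio of 1. Slc2a8, an intracellular GLUT, was higher with 99 reads (2.88 RPM) against 175 reads (4.998 RPM) (0.77, 0.27 to 1.33). Slc2a12 had 25 and 46 reads (0.73 and 1.31 RPM), and its interval (-0.20 to 1.97) included a ratio of 1. It shares 407 exon bases with Tbpl1 on the opposite strand, and Tbpl1 had 17.8 and 22.1 RPM. Slc2a13, a proton-coupled inositol carrier, had 6.09 and 4.45 RPM (-0.44, -0.89 to -0.01). The family as a whole was at 161.4 RPM in WT and 168.9 RPM in Igfbp7-/-, with 3 members higher and 4 lower of 9 past the minimum. These counts are 33.3% and 44.4%, beside 21.4% and 23.0% of all genes.

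**Figure D3:**
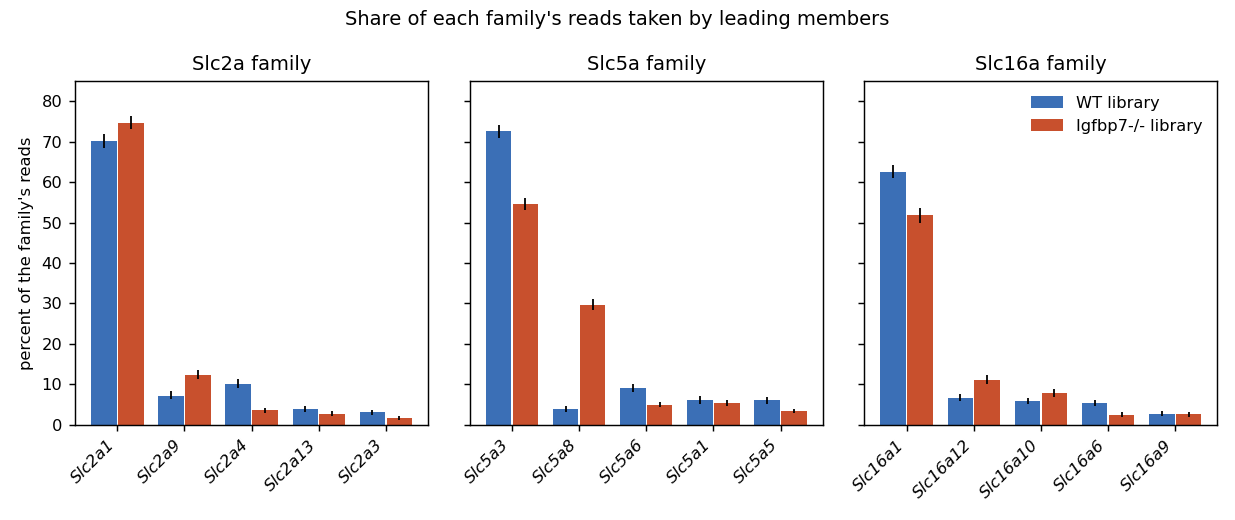
Percent of each family's reads taken by 5 leading members of the Slc2a, Slc5a and Slc16a families in the WT and Igfbp7-/- libraries, with 95% Wilson intervals on read pairs as error bars. The largest shift is that of Slc5a8, from 3.90% to 29.6% of the Slc5a reads.

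Of the 4 proton-coupled lactate carriers, the 3 that reached 1 RPM had a lower RPM in Igfbp7-/-. Among them 1 passed 1.5 times (33.3%, beside 23.0% of all genes), Slc16a3, which reached 1 RPM in WT only. Slc16a8, below the minimum, had reads in Igfbp7-/- alone. Slc16a1, which encodes MCT1 (chromosome 3, 104442591 to 104462385, plus strand, NCBIM37), had counts of 4310 (125.6 RPM) in WT against 3026 (86.4 RPM) in Igfbp7-/-. Its log2 ratio of -0.54 (interval -0.63 to -0.44) lay just short of 1.5 times, so it was not counted as lower. On the per-length scale it was second to Slc2a1 in both libraries, at 28.4 RPKM in WT and 19.5 RPKM in Igfbp7-/-. Slc16a3, which encodes MCT4, the lactate exporter of glycolytic cells, had 69 reads (2.01 RPM) and 27 reads (0.77 RPM), a log2 ratio of -1.28 (-2.41 to -0.44). It shares 831 exon bases with Csnk1d on the opposite strand, and Csnk1d had 138.1 and 160.6 RPM. Slc16a7, the high-affinity MCT2, had 3.64 and 2.51 RPM, and its interval (-1.13 to 0.04) included a ratio of 1. Slc16a8, which encodes MCT3, had 0 reads in WT and 7 reads (0.20 RPM) in Igfbp7-/-, and the interval of its log2 ratio (from -0.93, with no upper limit) included a ratio of 1. In Igfbp7-/- the per-length level of Slc5a8 (13.6 RPKM) thus came near that of Slc16a1 (19.5 RPKM), whereas in WT the values were 1.18 and 28.4 RPKM.

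The remaining Slc16a members have other substrates. Slc16a10, the aromatic amino acid carrier TAT1, had counts of 395 and 452 (11.5 and 12.9 RPM, 2.13 and 2.39 RPKM; 0.16, -0.12 to 0.45). Slc16a12, which carries creatine, had counts of 461 and 646 (13.4 and 18.4 RPM, 3.47 and 4.77 RPKM; 0.46, 0.21 to 0.71). Neither passed 1.5 times.

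Slc16a6, which encodes MCT7, did: it had counts of 367 (10.7 RPM, 2.54 RPKM) in WT against 142 (4.06 RPM, 0.962 RPKM) in Igfbp7-/- (log2 ratio -1.38, interval -1.81 to -0.996). It shares 1052 of its 4883 exon bases with Amz2 on the opposite strand, and whether the counting used strand is not given in the sources used here. Amz2 had 9.93 and 10.9 RPM, close to each other in both libraries. Slc16a13 had 100 and 37 reads (2.91 and 1.06 RPM; -1.38, -2.32 to -0.67). Slc16a9, a carnitine carrier, had 5.53 and 4.20 RPM, and Slc16a5 had 0.52 and 1.03 RPM, with intervals that included a ratio of 1 for both. Slc16a4, Slc16a11 and Slc16a14 stayed below 1 RPM in both libraries. Of the 10 Slc16a genes past the minimum, 3 were lower and 1 was higher (30% and 10%, beside 23.0% and 21.4% of all genes). The family sum was 200.6 RPM in WT and 166.8 RPM in Igfbp7-/-.

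Some members lie within 500000 bases of another in the genome. Slc16a11 and Slc16a13 are 372 bases apart on chromosome 11 (NCBIM37) on opposite strands, and Slc2a4 lies 264564 bases from Slc16a11. All 3 had a lower RPM in Igfbp7-/-: 0.61 and 0.34 RPM for Slc16a11, below the minimum, beside the values of Slc16a13 and Slc2a4 given above. A lower RPM by any amount was common, since the median log2 ratio of all genes past the minimum was 0.03. The interval of Slc16a11 (-2.57 to 0.74) included a ratio of 1, and a part of the position in these differences was not tested. Slc2a5 and Slc2a7, 4803 bases apart on chromosome 4, were both almost without reads.

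In the sugar phosphate family, Slc37a3 was the most abundant by RPM and Slc37a1 differed most. Slc37a1 encodes a glucose 6-phosphate and phosphate exchanger (chromosome 17, 31432428 to 31487641, plus strand, NCBIM37) and had counts of 263 (7.66 RPM, 2.60 RPKM) in WT against 506 (14.5 RPM, 4.91 RPKM) in Igfbp7-/-. It was 1.87 times higher, a log2 ratio of 0.91 (interval 0.61 to 1.23). Its share of the Slc37a reads went from 17.1% (14.6 to 19.9%) to 34.7% (31.3 to 38.2%). Slc37a3 had counts of 1039 and 768 (30.3 and 21.9 RPM, 7.45 and 5.40 RPKM; -0.46, -0.66 to -0.27), and Slc37a2 had 3.61 and 2.40 RPM (-0.57, -1.19 to -0.002). Slc37a4, the glucose 6-phosphate translocase of the endoplasmic reticulum, had 3.20 and 2.91 RPM, and its interval (-0.72 to 0.44) included a ratio of 1.

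The members nearest the threshold were Slc2a12 (0.77) among those counted as higher, Slc2a3 (-0.77) among those counted as lower, and Slc37a2 (-0.57) and Slc16a1 (-0.54) among those that were not counted. Of the 14 members past 1.5 times, 11 had an interval that excluded a ratio of 1, and 5 had at least 10 RPM in a library (Slc5a8, Slc37a1 and Slc2a9 higher, Slc2a4 and Slc16a6 lower). That is 21.4% higher and 14.3% lower of the 14 carriers at that level, against 20.7% and 20.4% of 8201 genes.

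Genes that work with these carriers were read from lists of symbols. In the list for lactate and pyruvate handling, lower values past 1.5 times were found for 5 of 10 genes and a higher one for 1 (23.0% and 21.4% of all genes), with a median log2 ratio of -0.63. Emb, the chaperone embigin, had 61.2 RPM in WT and 22.8 RPM in Igfbp7-/- (-1.42, interval -1.60 to -1.26). Bsg, the chaperone basigin that carries MCT1 to the membrane, had 159.3 and 98.7 RPM (-0.69). Brp44l, a subunit of the mitochondrial pyruvate carrier, had 76.4 and 30.8 RPM (-1.31), and Ldha, the lactate dehydrogenase subunit that favours lactate formation, had 278.8 and 160.5 RPM (-0.80). Pck2, mitochondrial phosphoenolpyruvate carboxykinase, was the member counted as higher, with 18.2 and 30.7 RPM (0.75).

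In the lactose synthesis list 0 of 13 genes counted as higher and 3 as lower (23.1%, beside 23.0% of all genes), and the median was -0.15. Those lower were Lalba, the lactose synthase modifier alpha-lactalbumin (401.4 and 189.2 RPM), Pgm1, a phosphoglucomutase (46.6 and 26.8 RPM), and Rag1ap1, the sugar carrier SWEET1 (19.9 and 10.6 RPM). B4galt1, the catalytic galactosyltransferase of lactose synthase, had 374.0 and 499.7 RPM (0.42, within 1.5 times), and Slc35a2, the Golgi carrier of UDP-galactose, had 15.002 and 19.4 RPM. Among 15 regulators of GLUT proteins, 2 were higher (13.3%, beside 21.4% of all genes) and 1 was lower (6.67%, beside 23.0%). Txnip, the arrestin-like protein that promotes removal of GLUT1 from the cell surface, had 1270 RPM in WT and 3194 RPM in Igfbp7-/- (1.33), while its relative Arrdc4 had 301.8 and 193.1 RPM (-0.64).

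The other lists held few genes past 1.5 times, to be read beside the 21.4% of all genes that were higher and the 23.0% that were lower. For glucose 6-phosphate and glycogen, 1 of 10 genes was higher and 2 were lower. Gys1, muscle-type glycogen synthase, lay just past 1.5 times (6.96 and 10.5 RPM, log2 ratio 0.59). The lower genes were G6pc3 (7.46 and 4.51 RPM, -0.71) and Gbe1 (14.9 and 9.80 RPM, -0.60). H6pd was just short of 1.5 times (110.9 and 74.1 RPM, -0.58). For inositol and osmolytes, 1 of 7 was higher (Impa2, an inositol monophosphatase, 5.74 and 11.2 RPM) and 2 were lower, with a median log2 ratio of -0.17. The lower genes were Impa1 (25.5 and 16.6 RPM, -0.61) and Akr1b3 (9.79 and 5.63 RPM, -0.79). Nfat5, the osmotic stress factor known to induce Slc5a3, had 339.8 and 471.9 RPM (0.47, within 1.5 times). Slc6a6 was also within 1.5 times, with 93.8 and 77.0 RPM (-0.29). For iodide and thyroid hormone, 3 genes passed the minimum: Dio2, the deiodinase that activates thyroid hormone, had 9.73 and 3.26 RPM, Thrb, a thyroid hormone receptor, had 9.35 and 15.8 RPM, and Thra was within 1.5 times. Among sugar carriers of other families 2 of 5 were higher and 1 was lower, Rag1ap1, given above. Those higher were Slc45a3 (12.6 and 32.6 RPM) and Slc45a4 (7.46 and 18.8 RPM), both of a family related to sucrose carriers.

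Most markers of several other cell types were lower in the Igfbp7-/- library by 1.5 times or more. Over all genes 23.0% were lower by the same rule. Lower values were found for 7 of 8 leukocyte markers (summed 656.6 and 126.8 RPM), 4 of 5 endothelial markers (1055 and 352.3 RPM), 5 of 6 basal epithelial markers (2942 and 957.9 RPM) and 4 of 6 fibroblast markers (9060 and 4582 RPM). Of 3 erythroid markers past the minimum 0 changed past 1.5 times (888.5 and 997.4 RPM over the list). The defining markers Ptprc (leukocytes), Pecam1 (endothelium) and Krt14 (basal cells) had 18.1, 88.9 and 148.4 RPM in Igfbp7-/-, so none was at 0. The luminal markers went both ways, with 2 of 8 higher and 3 lower (25% and 37.5%, beside 21.4% and 23.0% of all genes). Krt8 and Krt18 were higher (Krt8 268.1 and 789.0 RPM, Krt18 250.4 and 1174 RPM). Csn2 (53087 and 19970 RPM), Wap (13731 and 3866 RPM) and Lalba were lower, and the other 3 were within 1.5 times. The part of these cell types in the differences of single carriers was not tested.

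**Figure D4:**
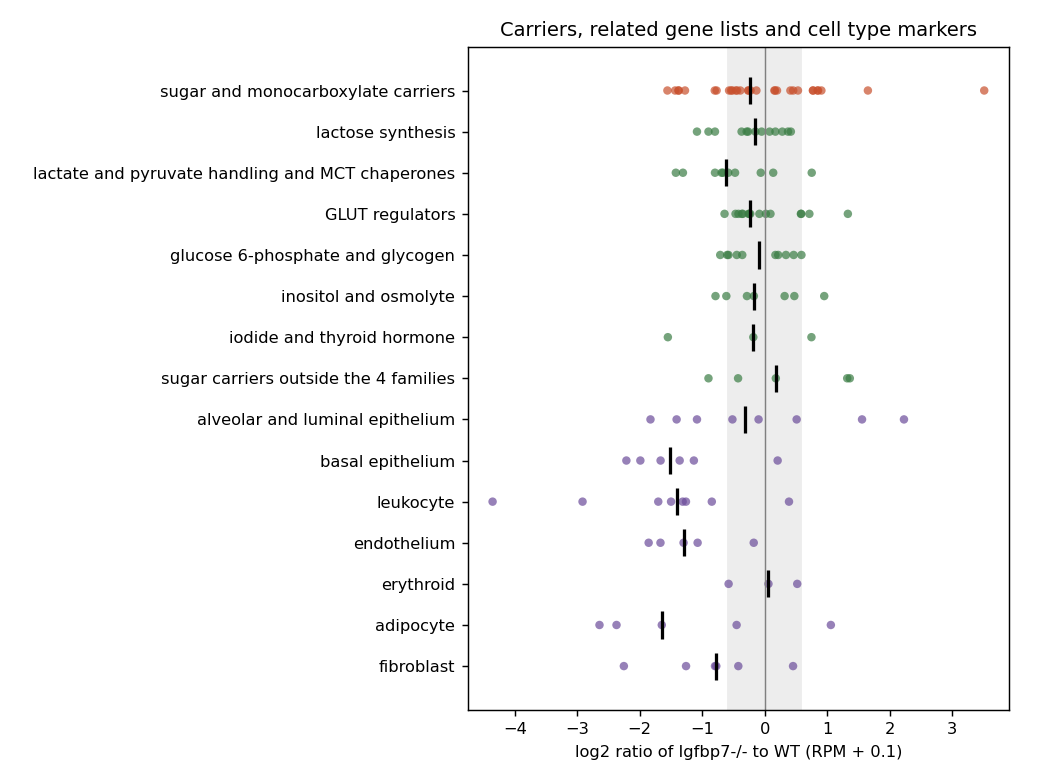
Log2 ratio of Igfbp7-/- to WT for the carriers, 7 lists of genes that work with them and 7 lists of cell type markers, with a point for each gene of at least 1 RPM in a library, a black bar at the median of each list and a grey band for ratios within 1.5 times. The carriers are centred near 0 with Slc5a8 far to the right, while the lists for leukocytes, basal epithelium, endothelium and adipocytes lie mostly to the left.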

How the data were processed

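Poly(A) RNA of lineage-depleted MECs was sequenced as 35 and 75 bp read pairs on a SOLiD sequencer. The authors mapped the reads with a Bowtie pipeline in GeneSifter, allowing at most 3 mismatches, and filtered ribosomal, mitochondrial and small nuclear RNA. The submitters' processing notes list Bowtie 0.12.3, SAMtools 0.1.15 and build mm9, while the methods name a human build. The gene annotation is not given in the sources used here. The deposited values were, per gene, a raw read count, the RPM (the count scaled to mapped reads) and the RPKM (RPM per kilobase of gene). The RPM denominator also holds reads on no listed gene, and ribosomal RNA still took 2.95% and 3.15% of the mapped reads. Of 25860 rows, 50 had no symbol and were left out.

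Ratios were computed from the deposited RPM with Python 3.11.15, numpy 2.4.6, scipy 1.17.1 and pandas 2.3.3. No count test was run, since each genotype had 1 library. Alternative scalings used edgeR 4.0.16 and DESeq2 1.42.0 factors in R 4.3.3. The ratio and its interval were also run on simulated read pairs, with changes put only into genes averaging at least 10 RPM. The simulation used the read sampling that the interval assumes, without variation between animals. It therefore cannot show how the interval does for real animals or for changes in carriers below that level. Positions came from the GENCODE annotation of NCBIM37, the build equal to mm9, and promoters from RefSeq on GRCm38.p6. The rule for naming took every carrier with at least 1 RPM in a library and, from each list, up to 4 genes of at least 10 RPM that differed most, plus defining genes. For some lists fewer are printed. Slc16a8, Slc16a11, Dio2, Slc35a2, G6pc3 and Akr1b3 were named outside the rule after their values were seen. A carrier that is part of the counts is not reported here by name. Members and lists were chosen with earlier results of these data known.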

Additional observations from a re-analysis of the deposited data

How the results depend on the processing

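No paired analysis was possible because each genotype had 1 library, and for the same reason no library could be left out. A minimum of 10 RPM in 1 library left 3 carriers higher and 2 lower of 14, beside 20.7% and 20.4% of all genes kept. A minimum of 1 RPM in both libraries left 4 higher and 6 lower of 26, beside 19.9% and 20.1%. A ratio threshold of 2 left 2 higher and 5 lower of 30, beside 9.64% and 13.8%. The other alternatives kept both counts within 1.5 times of 7. Scaling to reads on listed genes moved the median log2 ratio of all genes by 0.19 and gave 10 carriers higher and 7 lower, with 30.3% of all genes higher and 18.4% lower. The median of the carriers ran from -0.28 (centred) to 0.18 (minimum of 10 RPM). Of the 14 carriers past 1.5 times, 11 stayed past it on the same side in all 8 settings of pseudocount, unit and scaling, and 3 (Slc2a6, Slc2a12 and Slc16a5) came within it with a pseudocount of 1 RPM. Of the others, Slc16a12 and Slc5a1 became higher when scaled to reads on listed genes, and Slc37a2 became lower under a pseudocount of 0.01 RPM, TMM scaling and centring. Carriers near 1 RPM rest on few reads, and their intervals are wide.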
